A study of Arabidopsis thaliana with 48 samples.

Results

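The levels of 115 named Arabidopsis thaliana genes were higher by at least 1 on the log2 scale with abscisic acid (ABA), the plant hormone of drought and seed dormancy, in every setting that was measured. The settings were guard cells (GC), the paired cells that open and close the stomatal pore, and whole leaves (LF), each from 4 genotypes. The genes were taken from 13513 probe sets tied to 1 gene, and 22746 probe sets in all. They were chosen by their ABA values: the rule asked for a group mean with ABA that was 1 or more above the group mean with the solvent ethanol (EtOH) in all 8 pairs of groups. AT3G02480, LEA4-5, LEA18, COR15A, LTI30, PUB19 and AT1G63750 were left out by name. Of those 7 genes, 6 met the same threshold, and AT1G63750 did not, with a lowest difference of -1.86. In all, 273 of the 22746 probe sets met the threshold (1.20%), of which 121 were tied to 1 gene, 2 to several and 150 to none.

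RNA of 48 samples was hybridised to 1-colour expression arrays, in 16 groups of 3 biological replicates. The genotypes were agb1-2 (agb1), a mutant of the beta subunit of the heterotrimeric G protein, gpa1-4 (gpa1), a mutant of its alpha subunit, the agb1-2 gpa1-4 double mutant, and the wild type (WT). All were of the ecotype Columbia (Col-0). Samples were given 50 µM ABA or EtOH for 3 h. Each guard cell sample pooled cells from 300 leaves (60 to 70 plants) and each leaf sample 10 leaves (3 to 4 plants), so a replicate is a pool and not a plant. All plants were 5 weeks old and had grown in 8 h of light and 16 h of dark. The labels speak both of leaves and of isolated guard cells as what was held in ABA, and the source field calls the EtOH samples untreated.

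ABA is perceived by soluble receptors of the PYR/PYL/RCAR family, which bind and inhibit PP2C phosphatases. That releases SnRK2 kinases, which phosphorylate ion channels of the guard cell and bZIP transcription factors of the ABF/ABI5 family. Those factors switch on genes for protective proteins such as late embryogenesis abundant (LEA) and cold regulated (COR) proteins. In guard cells the hormone closes the stomata, and the G protein subunits GPA1 and AGB1 are known to take part in that response. The gene table used here ties no probe set to GPA1 or AGB1 alone, so the mutants were not checked by the level of the missing gene.

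Values are log2 expression per probe set and lay between 2.42 and 14.497, with array medians from 5.06 to 5.39. Correlations between arrays of a group lay between 0.963 and 0.995, and no 2 arrays were identical. Of the guard cell markers, 2 of 10 had a probe set tied to them alone, FMA and AT1G22690, and both were higher in guard cell than in leaf arrays (by 4.67 and 3.81, limma adjusted p = 6.50e-31 and 1.10e-27). All 4 measured mesophyll markers were lower there, by 0.85 (RCA) to 2.02 (LHCB4.2), but their mean level still lay between 8.35 and 10.24 on the guard cell arrays.

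The ABA differences of the 115 genes chose the genes, so they are given here as a description without a test. The median difference over the genes was 2.15 in agb1, 2.33 in gpa1, 2.07 in agb1 gpa1 and 2.33 in WT guard cells. In leaves it was 2.27 in agb1, 2.17 in gpa1, 2.11 in agb1 gpa1 and 2.595 in WT. Over all probe sets the medians of the 8 pairs lay between -0.03 and 0.05. For 104 of the genes every ABA array lay above every EtOH array of its pair in all 8 pairs, as it did for 2.04% of all probe sets. The rule used the same contrast.

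Averaged over the genes, ABA and EtOH arrays lay apart in each tissue, as the rule favours. The tissues lay apart with EtOH and overlapped with ABA. With ABA the mean level was between 8.66 and 9.18 on guard cell arrays, against 6.31 to 6.56 with EtOH. On leaf arrays it was between 8.06 and 8.77 with ABA, against 5.56 to 6.28 with EtOH. The third replicate of leaf agb1 was the highest leaf array in both treatments, at 8.77 with ABA and 6.28 with EtOH.

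**Figure D1:**
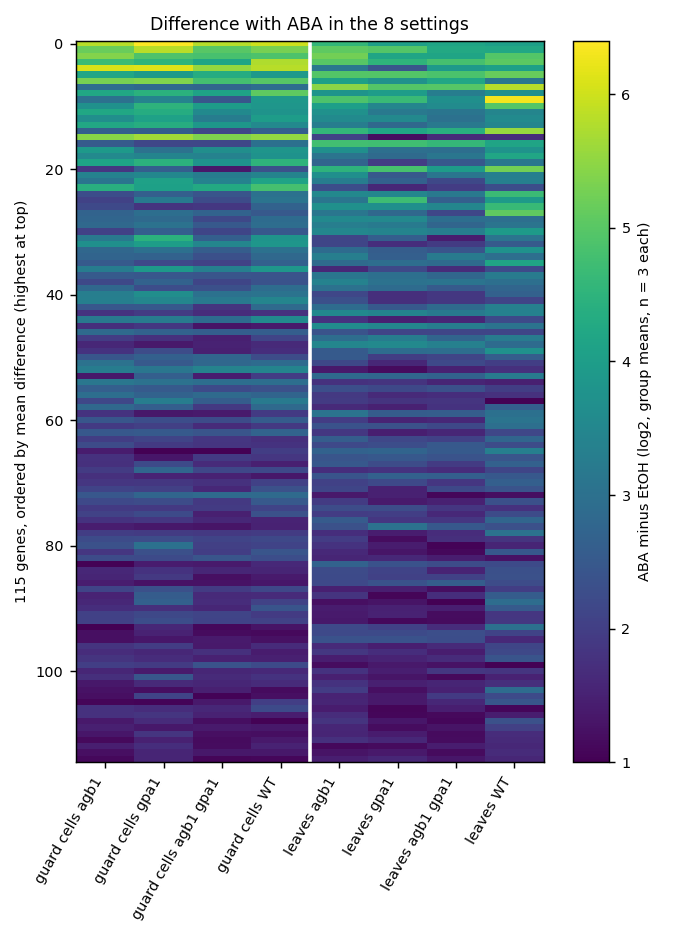
Difference between ABA and EtOH group means (log2, n = 3 arrays each) for the 115 genes, 1 row per gene ordered by mean difference, with guard cell settings left of the white line and leaf settings right of it. Every cell is at 1 or above because the rule chose it so. Many rows at the top differ between the tissues more than those at the bottom, which have little room to differ above that bound.

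The mean difference over the 8 pairs ran from 1.35 to 5.11 with a median of 2.23. It was 4 or more for 11 genes, between 2 and 4 for 62 and under 2 for 42. Most of the genes at the top are known to the gene table only by a locus code, so no function is given for them. AT1G69480 had the highest mean, 5.11, a fold change of 34.5. In guard cells it was at 9.26, 10.04 and 10.53 (lowest, median and highest of 12 arrays) with ABA, against 3.803, 4.15 and 4.26 with EtOH. Leaf arrays were at 7.96, 8.71 and 9.42 with ABA, against 3.91, 4.39 and 5.24 with EtOH. The ABA and EtOH arrays did not overlap in either tissue, and the difference was 5.80 to 6.39 in guard cells and 4.05 to 4.57 in leaves over the genotypes.

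AT1G49450 followed with a mean of 4.98. Its guard cell levels were 11.02, 11.65 and 12.05 with ABA, against 5.22, 6.19 and 7.43 with EtOH, and its leaf levels 7.48, 8.83 and 9.48 with ABA, against 3.46, 4.10 and 4.56 with EtOH. The EtOH arrays of the tissues did not overlap, and neither did the ABA arrays, although the difference was near 5 in both. AT5G05220 was alike, with a mean of 4.82 and guard cell levels of 11.19, 12.14 and 12.56 with ABA, against 6.43, 7.17 and 7.59 with EtOH. Its leaf levels were 7.29, 8.65 and 10.10 with ABA, against 3.64, 3.98 and 4.44 with EtOH.

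AT1G24600 had nearly equal mean differences in guard cells (4.79) and leaves (4.83). Its guard cell arrays with ABA spread widely, at 6.97, 9.19 and 10.40, against 3.59, 3.96 and 4.91 with EtOH. AT5G53710, at 4.01 in both tissues, was at 7.13, 8.23 and 9.24 with ABA in guard cells, against 3.94, 4.18 and 4.51 with EtOH. Both genes were thus low on every EtOH array and higher with ABA by a similar amount in both tissues. AT5G45950 (mean 4.54), AT2G25625 (4.08), AT5G24080 (4.08), AT3G22620 (4.04) and AT4G33905 (3.67) were the other locus codes among the highest 12, with AT2G47780, described below with the tissues. ZW9, a gene with a symbol but no named function, had a mean of 4.44, with guard cell levels of 9.98, 10.55 and 11.02 with ABA, against 4.44, 5.397 and 6.69 with EtOH.

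**Figure D2:**
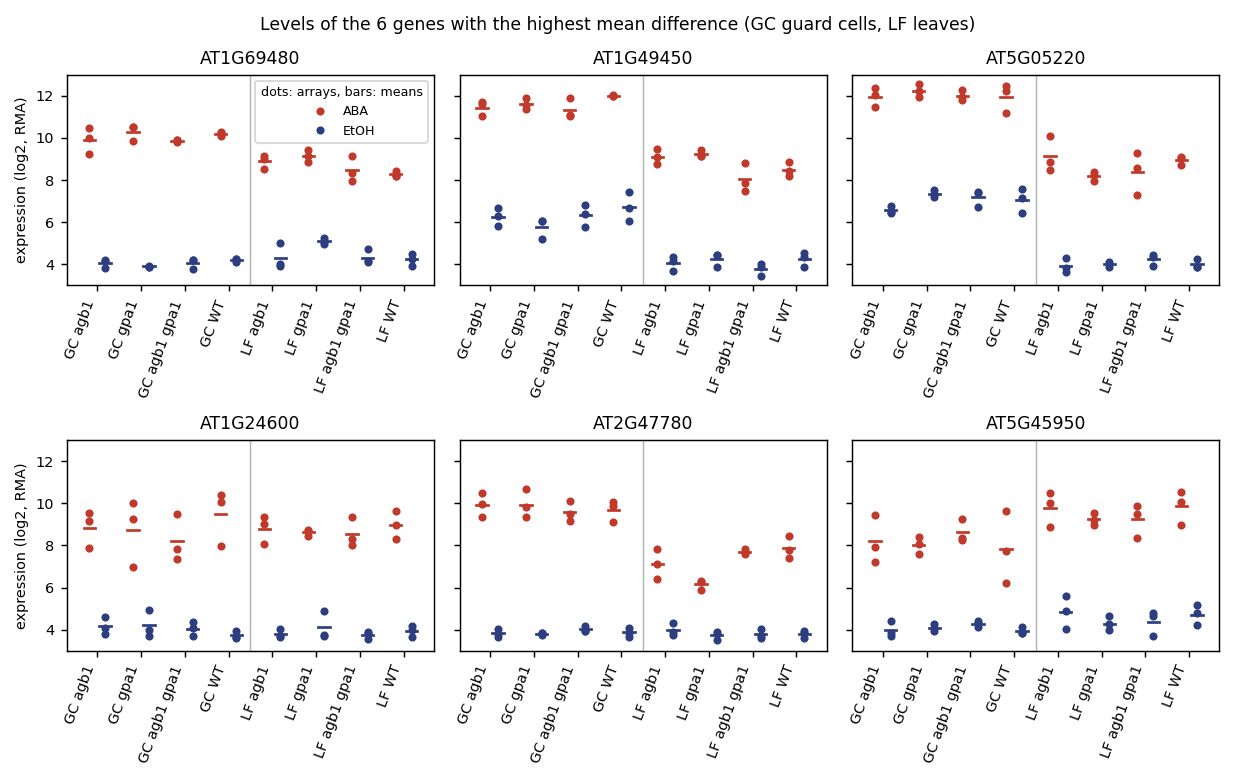
Expression (log2) on each array of the 6 genes with the highest mean difference, by tissue and genotype, with ABA arrays in red left of EtOH arrays in blue and bars at the means of 3 arrays. ABA arrays lie above EtOH arrays in every pair, AT1G49450 and AT5G05220 sit lower in leaves than in guard cells under both treatments, and AT2G47780 lies apart between the tissues with ABA and alike with EtOH.

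AT3G22620 had large replicate spread with ABA. Its 3 values in gpa1 guard cells with ABA were 8.35, 4.96 and 9.16, against 4.09, 4.00 and 4.14 with EtOH. In WT leaves they were 9.63, 11.59 and 9.40 with ABA, against 3.89, 3.87 and 3.96 with EtOH. The low ABA array of gpa1 guard cells was less than 1 above its EtOH arrays, while the leaf arrays stood far apart. Over the 115 genes the median replicate SD was 0.31 to 0.43 in the guard cell groups with ABA and 0.21 to 0.33 in those with EtOH.

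Genes of dehydration and cold were the first role group among the 18 genes with a symbol or family name. AtLEA4-1, a LEA protein, had the largest range over the pairs, with 5.65 in gpa1 guard cells and 1.19 in gpa1 leaves. It was at 8.23, 9.08 and 10.48 with ABA in guard cells, against 3.44, 3.63 and 3.96 with EtOH. In leaves it reached only 4.09, 4.98 and 6.12 with ABA, against 3.10, 3.47 and 3.77 with EtOH. The EtOH levels of the tissues overlapped and the ABA levels did not. COR15B, a cold regulated protein of the chloroplast, had a mean difference of 2.66, with guard cell levels of 8.59, 10.82 and 11.69 with ABA, against 5.91, 8.71 and 10.43 with EtOH. These ranges overlapped, and its 3 WT guard cell arrays were at 11.53, 9.74 and 8.59 with ABA, against 8.80, 6.56 and 5.91 with EtOH. SIS, a serine-rich protein named for salt induction, had a mean difference of 1.71.

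Among the genes of carbohydrate-binding or carbohydrate-cleaving proteins, CHI, a chitinase, had a mean difference of 3.12 and was highest in gpa1 leaves, at 4.73. It was at 6.67, 7.61 and 9.06 in guard cells with ABA, against 4.36, 4.95 and 6.56 with EtOH. EULS3, a lectin of the Euonymus type, had a mean of 2.74 and a range over the pairs of 0.88. Its guard cell levels were 11.69, 11.94 and 12.37 with ABA, against 8.93, 9.55 and 10.10 with EtOH. EULS3 thus differed evenly over the pairs, and CHI ranged from 2.06 to 4.73.

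Of 3 genes of protein turnover, BETA-VPE, a vacuolar processing enzyme that cleaves proteins in the vacuole, had a mean difference of 2.69, and its differences were 2.27 to 2.91 in guard cells and 2.53 to 3.02 in leaves. It was at 6.07, 6.61 and 7.98 in guard cells with ABA, against 3.84, 4.15 and 4.45 with EtOH, and at 6.24, 7.04 and 8.15 in leaves with ABA, against 3.96, 4.25 and 4.57 with EtOH. These levels were alike in both tissues. SBTI1.1, a subtilase, which is a serine protease, had a mean of 2.04, and UBC32, a ubiquitin-conjugating enzyme, a mean of 1.88. UBC32 was higher in its guard cell difference (2.29) than in its leaf difference (1.46).

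In the group of hormone, light and G protein signalling, PRN, the pirin that is known to interact with GPA1, had a mean difference of 2.74 in guard cells and 1.29 in leaves. It was at 8.86, 9.07 and 9.52 in guard cells with ABA, against 5.99, 6.37 and 7.198 with EtOH. In leaves it was at 9.26, 10.01 and 10.52 with ABA, against 7.93, 8.60 and 9.78 with EtOH. The leaf arrays with EtOH already lay high and overlapped those with ABA. WES1, a GH3 enzyme that joins hormones such as auxin to amino acids, and AFR, an F-box protein of far-red light signalling, had means of 2.23 and 2.03. WES1 overlapped between treatments in WT leaves, where its ABA values were 9.80, 8.45 and 9.37, against EtOH values of 7.21, 8.25 and 9.13.

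HIS1-3, the linker histone H1 variant known for induction by drought, and AT1G30260, listed as an AGAMOUS-like protein, formed the chromatin and transcription group, with mean differences of 2.07 and 2.93. HIS1-3 was at 9.40, 10.92 and 12.35 in guard cells with ABA, against 7.87, 9.11 and 11.14 with EtOH, with overlap. In leaves it was at 7.22, 8.16 and 8.68 with ABA, against 4.30, 5.65 and 6.43 with EtOH, without overlap. In the metabolism and cell wall group GPDHC1, a cytosolic glycerol-3-phosphate dehydrogenase, had a mean of 2.00 and 1 of the 3 smallest ranges over the pairs, from 1.78 to 2.26. IRX15-L, of xylan deposition in the cell wall, and HOS3-1, of the fatty acid elongase family, had means of 1.58 and 1.43. CPUORF47, a conserved peptide encoded upstream of a main reading frame, had a mean of 1.72.

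The range over the 8 pairs was under 1 for 27 genes and over 2 for 26, with a median of 1.35. It was smallest for AT2G38250 (0.45), GPDHC1 (0.48) and AT5G43150 (0.49). AT2G38250 was at 6.36, 7.47 and 7.81 in guard cells with ABA, against 4.99, 5.52 and 6.58 with EtOH. The range was largest for AtLEA4-1 (4.45), AT4G28140 (3.91) and AT3G22620 (3.86). Even and uneven genes thus met the same rule.

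Guard cells and leaves differed gene by gene in the size of the ABA difference, with no common direction. The mean guard cell difference was above the leaf one in all 4 genotypes for 38 genes and below it in all 4 for 43, and 34 were mixed. It was above by 1 or more for 17 genes, below by 1 or more for 20, and within 0.5 for 43. The median of guard cell minus leaf difference was -0.04. Across the 115 genes the guard cell and leaf means had a correlation of 0.475, given as a description over genes that share the same arrays.

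The genes with the largest excess in guard cells were AtLEA4-1 (5.49 in guard cells, 1.65 in leaves), AT2G47780 (5.90 and 3.39) and AT5G50360 (4.39 and 2.03). AT2G47780 was at 9.13, 9.84 and 10.66 in guard cells with ABA, against 3.65, 3.86 and 4.197 with EtOH. Leaf arrays were at 5.86, 7.50 and 8.45 with ABA, against 3.499, 3.83 and 4.31 with EtOH. The tissues were alike with EtOH and did not overlap with ABA. AT5G50360 was at 8.55, 9.59 and 10.54 in guard cells with ABA, against 4.79, 5.17 and 5.64 with EtOH, and at 6.22, 6.99 and 7.83 in leaves with ABA, against 4.72, 4.89 and 5.29 with EtOH.

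The genes with the largest excess in leaves were AT4G28140 (2.04 in guard cells, 4.63 in leaves), AT2G25625 (2.86 and 5.30) and AT5G15190 (2.49 and 4.69). AT2G25625 was at 6.56, 7.64 and 7.78 in guard cells with ABA, against 4.22, 4.55 and 5.25 with EtOH. Leaf arrays were at 9.14, 9.98 and 10.97 with ABA, against 4.26, 4.68 and 5.28 with EtOH. This is the reverse of AT2G47780, again with like EtOH levels in both tissues. AT4G28140 was at 5.03, 6.02 and 7.09 in guard cells with ABA, against 3.78, 3.98 and 4.32 with EtOH, and at 8.74, 9.41 and 10.18 in leaves with ABA, against 3.83, 4.35 and 6.71 with EtOH.

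AT5G15190 took another course. Its ABA levels were alike, at 9.27, 10.12 and 10.50 in guard cells and 9.30, 9.84 and 10.76 in leaves. Its EtOH levels were 6.54, 7.65 and 8.00 in guard cells and 4.17, 5.16 and 6.38 in leaves, without overlap. The difference between the tissues thus lay on the EtOH arrays.

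**Figure D3:**
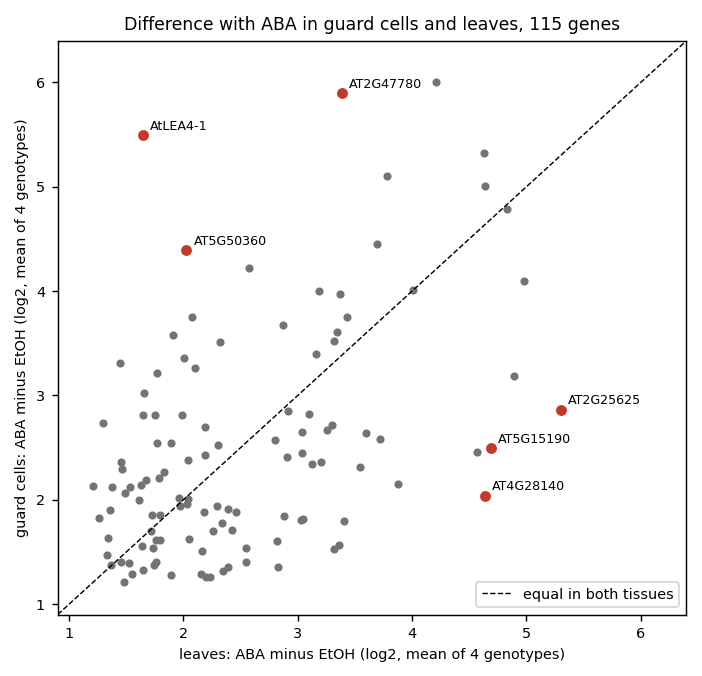
Mean difference between ABA and EtOH over the 4 genotypes (log2) in guard cells (vertical axis) against leaves (horizontal axis), 1 point per gene for 115 genes, with the dashed line where both are equal. Points lie on both sides of the line, and the 6 labelled genes have the largest excess in either tissue, AtLEA4-1 at 5.49 in guard cells and 1.65 in leaves and AT2G25625 at 2.86 and 5.30.

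In leaves the difference of a mutant minus that of WT had a median over the 115 genes of -0.17 for agb1, -0.43 for gpa1 and -0.49 for agb1 gpa1. Over all probe sets these medians were -0.02 for agb1, -0.05 for gpa1 and -0.03 for agb1 gpa1. The value was below 0 for 75 of the genes in agb1, 86 in gpa1 and 91 in agb1 gpa1. In guard cells the medians were -0.09 for agb1, 0.08 for gpa1 and -0.20 for agb1 gpa1, with 71 genes below 0 in agb1, 48 in gpa1 and 85 in agb1 gpa1, and the medians of all probe sets were -0.0098 for agb1, -0.010 for gpa1 and -0.0040 for agb1 gpa1. These comparisons share the WT arrays, and the rule used the same values, so they are a description. All probe sets include repressed and unresponsive ones, so their medians are no like measure for genes chosen as induced. The share of all probe sets below 0 is not given, so a weaker difference in the mutants is not shown to be particular to these genes. WT had the highest difference of the 4 genotypes in leaves for 68 of the 115 genes, as it did for 41.3% of all probe sets, and the lowest for 17, against 35.3% of all probe sets. The mesophyll markers moved too: their mean level on leaf arrays was 9.54 to 11.04 with ABA, against 10.89 to 12.42 with EtOH. The median ABA difference of the 4 markers in leaves was -0.98 in agb1, -0.50 in gpa1, -0.80 in agb1 gpa1 and -1.99 in WT. All 4 had a negative difference in every genotype. At a limma adjusted p under 0.05, 2 of 4 were called lower in agb1 (7.59% of all probe sets) and 0 of 4 in gpa1 (4.95%). In agb1 gpa1 it was 0 of 4 (5.07%), and in WT 4 of 4 (21.8%). The part of these markers in the leaf differences was not tested. Guard cell markers on guard cell arrays had a mean level of 10.70 to 11.50 with ABA, against 12.03 to 12.77 with EtOH, and FMA fell in all 4 genotypes by 2.23 to 2.78. The other measured marker, AT1G22690, had differences of -0.43 to -0.17 and passed in no guard cell pair (limma adjusted p from 0.166 to 0.672). Their part was not tested either.

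Values lay close on both sides of the threshold. Just inside it were AT2G15830 and WES1, each with a lowest difference of 1.01, and AT1G65690, also at 1.01. Just outside were AT1G64890, AT1G71940 and EXPA16, all at 0.99, of which EXPA16, an expansin that loosens cell walls, had a mean difference of 3.18. Within 0.1 of the threshold there were 14 genes inside and 22 outside.

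Levels averaged over ABA and EtOH were tested with limma. The p-values were adjusted by the Benjamini-Hochberg method over all 22746 probe sets and called under 0.05. Replicate error in these levels is independent of that in the differences that chose the genes. The levels themselves are not, since a larger ABA difference in a tissue raises the averaged level there. Guard cells differed from leaves for 102 of the 115 genes, against 71.5% of all probe sets. The level was higher in guard cells for 67 genes (39.2% of all probe sets) and lower for 35 (32.3% of all probe sets), and 13 did not pass. The median difference was 0.61 over the 115 genes and 0.04 over all probe sets. Of the called genes, 23 were higher by 2 or more and 4 were lower by 2 or more. In samples of many cells, fewer cells of a type and less RNA per cell cannot be told apart.

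AT1G23200 had the highest guard cell level relative to leaves, with a difference of 5.25 ± 0.11 (SE, 24 arrays each, limma adjusted p = 2.31e-31). It was at 9.96, 11.44 and 12.48 (lowest, median and highest) in guard cells and at 4.29, 6.04 and 7.44 in leaves. AT2G21820 was higher by 4.09 ± 0.12 (limma adjusted p = 2.96e-26), with 7.34, 9.34 and 11.45 in guard cells and 4.01, 5.01 and 7.15 in leaves. Neither gene overlapped between the tissues, with ABA and EtOH arrays pooled. AT4G33905 (3.85), AT4G24130 (3.72) and HIS1-3 (3.25) came next. AT4G33905 was at 6.44, 9.495 and 11.83 in guard cells and 3.61, 5.38 and 7.96 in leaves, with overlap between guard cell EtOH arrays and leaf ABA arrays.

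At the other end, AT4G33666 was lower in guard cells by 4.98 on the log2 scale (SE 0.19, limma adjusted p = 3.27e-23), at 3.47, 5.15 and 7.34 in guard cells and 7.04, 10.30 and 11.76 in leaves. AT3G43270 (-3.25), AT5G47330 (-3.07), AT4G28140 (-2.01) and AT1G55265 (-2.0) followed. AT5G47330 was at 4.37, 6.999 and 10.28 in guard cells and at 8.00, 10.90 and 12.07 in leaves. For all 5 genes the guard cell median lay below the leaf median under each treatment (12 arrays each).

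Of the 18 genes with a symbol or family name, GPDHC1 (3.22), AFR (3.16), EULS3 (2.64), SBTI1.1 (2.36), SIS (2.36) and AtLEA4-1 (2.13) were also higher in guard cells by more than 2. For AtLEA4-1 the tissues lay apart on the ABA arrays only, since its EtOH levels overlapped. CHI (-1.91), WES1 (-1.62), PRN (-1.51), IRX15-L (-1.04) and AT1G30260 (-0.75) were lower. BETA-VPE did not pass, with a difference of -0.22 (limma adjusted p = 0.0685). Of the 67 genes higher in guard cells 34 also had the larger ABA difference there, and of the 35 lower ones 13 did. The averaged level includes part of the ABA difference, so these counts cannot show whether level and ABA difference go together.

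**Figure D4:**
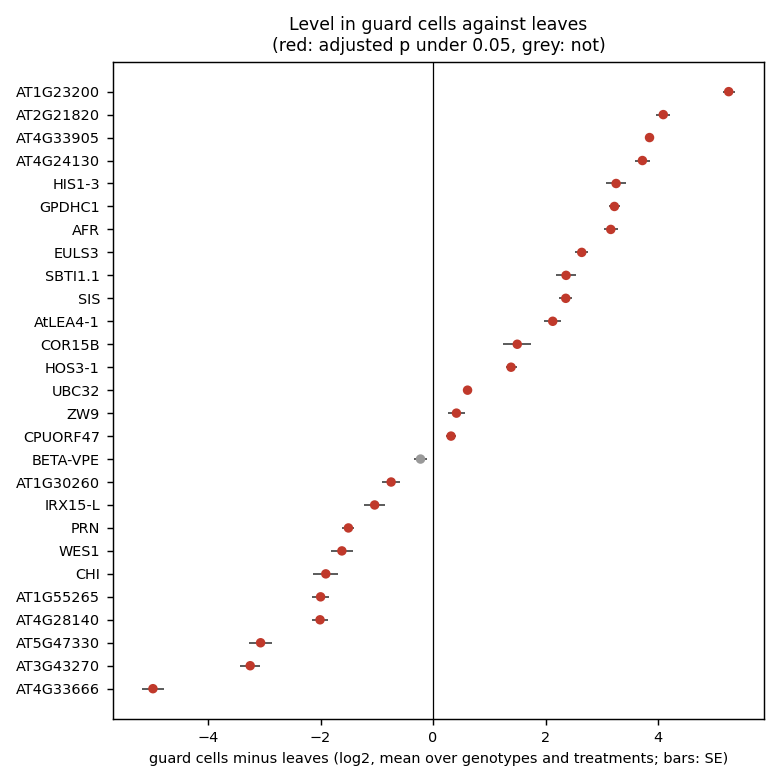
Guard cell minus leaf level (log2, averaged over genotypes and treatments, bars for SE) of the 5 highest and 5 lowest called genes and of the genes with a symbol or family name, in red where the limma adjusted p was under 0.05 and in grey where not. Differences run from 5.25 for AT1G23200 to -4.98 for AT4G33666, with BETA-VPE the only grey point.

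Sample preparation is confounded with tissue, and the 2 cannot be told apart. Heat shock genes (2 of 6 measured) had a mean level of 11.94 to 12.79 on guard cell arrays and 4.32 to 7.47 on leaf arrays. Touch and wound genes (5 of 7 measured) had one of 10.001 to 10.66 on guard cell arrays. On leaf arrays theirs was 6.98 to 8.55 with EtOH and 8.39 to 9.48 with ABA. Of these 5 genes, 4 were called higher in guard cells (39.2% of all probe sets). WRKY53 was called lower (32.3% of all probe sets), with a difference of -1.26 (limma adjusted p = 3.21e-10). The part of either list in the tissue differences of the 115 genes was not tested.

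Few genes passed between genotypes in the treatment-averaged level. In guard cells 1 of the 115 genes passed in agb1 against WT (0.110% of all probe sets), 0 in gpa1 (0.207%) and 1 in agb1 gpa1 (0.585%). In leaves 0 passed in agb1 (0.00440%), 0 in gpa1 (0.00440%) and 1 in agb1 gpa1 (0.176%). At an unadjusted limma p under 0.05 there were 9 in agb1 (8.38% of all probe sets), 25 in gpa1 (12.99%) and 15 in agb1 gpa1 (12.4%) guard cells, and 12 in agb1 (6.02%), 16 in gpa1 (11.6%) and 17 in agb1 gpa1 (15.6%) leaves. A missed threshold does not show that the levels were equal.

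The gene that passed in guard cells was AT1G20310, in both mutants that carry agb1-2. With ABA it was at 7.74, 7.42 and 7.37 in agb1 and at 7.71, 7.75 and 7.43 in agb1 gpa1, against 8.79, 8.11 and 8.24 in WT. With EtOH it was at 5.92, 6.01 and 5.82 in agb1 and at 5.87, 6.14 and 6.17 in agb1 gpa1, against 7.09, 6.76 and 6.61 in WT. Neither mutant overlapped with WT under either treatment, whereas gpa1 did, at 9.03, 8.43 and 8.27 with ABA and 6.97, 6.90 and 6.49 with EtOH. The level fell by 0.89 in agb1 (SE 0.14, limma adjusted p = 0.00876) and by 0.76 in agb1 gpa1 (limma adjusted p = 0.0187), and differed by 0.08 in gpa1 (limma adjusted p = 0.875). Fitted on the arrays of the 2 genotypes alone, the adjusted p was 0.0689 for agb1 and 0.0516 for agb1 gpa1.

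The ABA difference of AT1G20310 in guard cells was 1.59 in agb1, 1.79 in gpa1, 1.57 in agb1 gpa1 and 1.56 in WT. It was thus of like size in all genotypes, while the level was shifted under both treatments. In leaves the level differed from WT by 0.00 in agb1 and by -0.20 in agb1 gpa1, and neither passed. The change between tissues in the agb1 difference was -0.89 (SE 0.25, limma adjusted p = 0.272) and did not pass, so the guard cell and leaf differences were not shown to be unequal.

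AT1G11210 was the gene that passed in leaves. In agb1 gpa1 it was at 9.77, 9.89 and 9.63 with ABA, against 9.31, 8.45 and 9.24 in WT, and at 8.36, 8.19 and 7.63 with EtOH, against 5.99, 6.48 and 6.82 in WT. The groups did not overlap. The level was higher by 1.20 in the double mutant (SE 0.23, limma adjusted p = 0.0369). The call was lost in 8 of 17 alternatives, all of which left out 1 array, with adjusted p-values up to 0.116, which was reached without the second WT replicate with ABA.

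**Figure D5:**
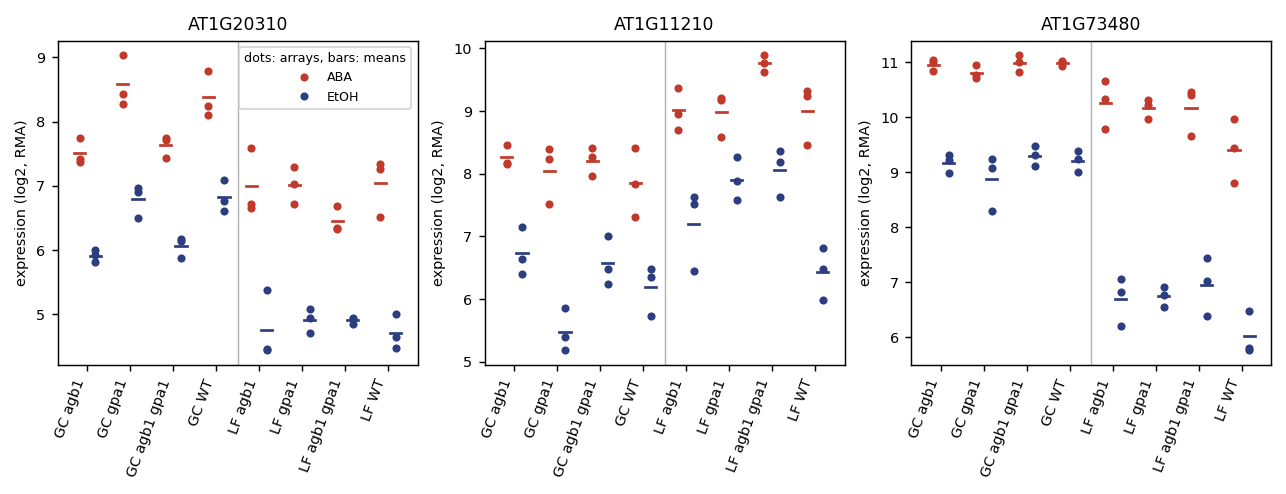
Expression (log2) on each array of the 3 genes called in a genotype comparison, by tissue and genotype, with ABA arrays in red, EtOH arrays in blue and bars at the means of 3 arrays. AT1G20310 is lower in guard cells of agb1 and agb1 gpa1 than of WT under both treatments, AT1G11210 is higher in leaves of agb1 gpa1, and AT1G73480 is lowest in leaves of WT.

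Whether a mutant's shift was unequal between guard cells and leaves was tested over all 48 arrays. It was unequal for 0 of the 115 genes in agb1 (0.0132% of all probe sets), 1 in gpa1 (1.64%) and 0 in agb1 gpa1 (1.76%), with 13 genes in agb1 (7.96% of all probe sets), 23 in gpa1 (16.3%) and 18 in agb1 gpa1 (16.1%) at an unadjusted limma p under 0.05. The gene was AT1G73480. Its gpa1 minus WT level was -0.26 in guard cells and 0.74 in leaves, and neither passed on its own. The leaf difference from WT was alike in the other mutants, at 0.76 in agb1 and 0.85 in agb1 gpa1. Their changes between tissues were -0.80 in both and did not pass (limma adjusted p = 0.405 and 0.112). Each mutant was compared with the same WT leaf arrays. With EtOH AT1G73480 was at 8.30, 9.08 and 9.24 in gpa1 guard cells, against 9.24, 9.38 and 9.01 in WT, and at 6.76, 6.92 and 6.55 in gpa1 leaves, against 6.47, 5.80 and 5.77 in WT. The gpa1 leaf arrays with EtOH thus lay above those of WT, and the guard cell arrays overlapped. The change between tissues in gpa1 was -0.9999 (SE 0.27, limma adjusted p = 0.0480), and the call was lost in 19 of 29 alternatives, with adjusted p-values up to 0.110.

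Other genes of the ABA pathway could be read only in part. Of 117 genes written in 9 lists, 11 had a probe set tied to them alone, and none of the listed receptors, PP2C phosphatases, SnRK2 kinases or bZIP factors was among those. Of the 11, COR15B belongs to the 115 genes and 5 were left out by name. Those genes met the threshold of the rule, and the rest remain because they missed it in some pair. Which genes were tested thus depended on the same ABA differences, so pairs without a call were favoured. The other 5 were tested with limma in each of the 8 pairs, where ABA raised 7.26% of all probe sets in agb1, 8.67% in gpa1, 7.26% in agb1 gpa1 and 8.55% in WT guard cells, and 6.93% in agb1, 5.37% in gpa1, 5.09% in agb1 gpa1 and 16.9% in WT leaves. It lowered 8.44% in agb1, 11.4% in gpa1, 8.99% in agb1 gpa1 and 11.6% in WT guard cells, and 7.59% in agb1, 4.95% in gpa1, 5.07% in agb1 gpa1 and 21.8% in WT leaves.

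In guard cells ABA raised 2 of the 5 genes in each genotype, COR47, a dehydrin, and UGT71B6, a glucosyltransferase that conjugates ABA. COR47 was at 13.16, 13.78 and 14.05 with ABA in guard cells, against 11.71, 12.76 and 12.99 with EtOH, and rose there by 0.96 to 1.43 (limma adjusted p from 0.000268 to 0.0103). In leaves it was higher by 1.15 in gpa1 (limma adjusted p = 0.0161), and the differences of 0.86 in agb1, 0.82 in agb1 gpa1 and 0.30 in WT did not pass. The gpa1 call was lost in 3 of 11 alternatives, without the first gpa1 array with EtOH or the second or the third with ABA (limma adjusted p up to 0.0568). In agb1 leaves it passed in 3 of 11 alternatives, after median centring, without dim probe sets and without the third agb1 array with ABA (limma adjusted p down to 0.0234). In agb1 gpa1 leaves it passed after median centring (limma adjusted p = 0.0456). The change between tissues was not tested.

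UGT71B6 rose in guard cells by 1.42 to 1.91, at 6.58, 6.90 and 7.51 with ABA, against 4.66, 5.26 and 5.94 with EtOH. In leaves its differences were 0.65 to 0.75 and did not pass, but WT leaves passed in 3 of 11 alternatives, after median centring and without the second WT array with ABA or with EtOH (limma adjusted p down to 0.00717). In gpa1 leaves the limma adjusted p was 0.0284 on the compared arrays alone. UGT71C5, a second ABA glucosyltransferase, fell in 3 guard cell pairs, gpa1, agb1 gpa1 and WT, and in the 3 mutant leaf pairs. The gpa1 guard cell call was lost in 8 of 11 alternatives, including median centring and the removal of any gpa1 array with EtOH or of the second or the third with ABA (limma adjusted p up to 0.122). The WT guard cell call was lost in 2, on the compared arrays alone and without the third WT array with EtOH. The agb1 gpa1 guard cell call was lost without the first agb1 gpa1 array with ABA, and the leaf call on the compared arrays alone. WT leaves passed without the third array with EtOH or the first with ABA (limma adjusted p down to 0.0374). Its leaf levels were 6.77, 7.28 and 7.65 with ABA, against 7.57, 7.98 and 8.40 with EtOH.

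AT5G52050, the ABA exporter DTX50, rose in leaves of all 4 genotypes by 1.74 to 2.19, at 8.40, 8.78 and 9.25 with ABA, against 6.17, 6.79 and 7.30 with EtOH. In guard cells it was at 7.15, 8.68 and 9.61 with ABA, against 6.69, 8.42 and 10.09 with EtOH, with differences of -0.08 to 0.15 that did not pass. Part of that spread lay between genotypes. The gpa1 guard cell means were 7.47 with ABA and 7.37 with EtOH, against 8.75 and 8.83 in WT. The averaged gpa1 minus WT level there was -1.37 and did not pass (limma adjusted p = 0.109). Its change between tissues was -1.67 (limma adjusted p = 0.0346, with 1.64% of all probe sets called). BGLU33, a beta-glucosidase that frees ABA from its conjugate, fell in WT leaves by 2.44 (limma adjusted p = 0.000586) and passed in no other pair. Its guard cell levels were low on every array, at 3.29, 3.53 and 4.11 with ABA, against 3.34, 3.66 and 4.42 with EtOH. A fall could hardly be seen there. None of these 5 genes met the threshold of the 115 in all pairs, as their choice required. UGT71B6 met it in all 4 guard cell pairs.

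The 115 genes lay mostly apart on the chromosomes, by the order of genes in the TAIR10.1 annotation. In 2 cases a pair had no protein-coding gene between its members, AT3G16990 with UBC32 and AT5G59480 with AT5G59490, and 5 pairs had at most 5 genes between them. AT3G16990 and UBC32 had mean differences of 2.28 and 1.88, both larger in guard cells (2.81 and 2.29) than in leaves (1.75 and 1.46). Their 8 differences had a correlation of 0.951, read from the same arrays. The 8 values span both tissues, so the gap between guard cells and leaves that both genes share enters it. AT5G59480 and AT5G59490 had means of 2.96 and 1.99, with a correlation of 0.60 over the 8 differences. For the remaining close pairs it ran from 0.37 to 0.46. Whether neighbours share their ABA response was not tested. COR15B lies next to COR15A, which was left out by name.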

How the data were processed

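RNA of 48 samples was measured on 1-colour arrays of 22810 probe sets. The authors deposited log2 expression values made with RMA, a tool named with affy in the submitters' processing notes. Their versions, and whether all arrays were normalized together, are not given in the sources used here. RMA pulls array distributions together, so only changes relative to the other probe sets are measured. Without the 64 controls 22746 probe sets remained, and 13513 were tied to 1 gene through the platform annotation and a RefSeq table (TAIR10.1). The genes and lists were chosen with earlier results of these data known. Group means were fitted with limma 3.58.1 in R 4.3.3 (eBayes, Benjamini-Hochberg), on 24 arrays of a tissue for genotype and ABA comparisons and on all 48 for comparisons across tissues, and tested on simulated data. Named genes were the 12 highest means, role groups, the ends of each test or range, and the threshold's neighbours. Alternatives were median centring, an eBayes trend, no dim probe sets (mean under 5), fewer groups, a replicate block and single arrays left out. Arrays give no counts, so their number limits the precision.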

Additional observations from a re-analysis of the deposited data

Results flagged for a closer look

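AT1G73480 had a gpa1 minus WT level, averaged over ABA and EtOH, that differed between guard cells and leaves by -0.9999 (limma adjusted p = 0.0480). It was the 1 gene of the 115 called for the interaction term of genotype and tissue in gpa1, against 1.64% of all probe sets. The same change was -0.80 in agb1 and in agb1 gpa1, where it did not pass. Limma adjusted p-values over the alternatives of the gpa1 change ran from 0.0282 to 0.110, and the call was lost in 19 of 29.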

How the results depend on the processing

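The rule found 115 genes as reported, 131 after median centring, 109 with group medians and 111 without dim probe sets. It found 137 at a threshold of 0.9, 101 at 1.1 and 108 to 118 with 1 array left out. For centring, group medians and single arrays left out, how many of the 115 genes were kept is not given. Guard cells against leaves gave 99 to 103 called genes over the other settings of all genotypes, 83 on WT arrays alone and 101 to 104 with 1 array left out. Centring gave 68 higher and 35 lower. After centring the share of higher values among all calls was 70.7% for ABA in WT leaves (43.7% as reported), 60.5% in agb1 leaves (47.7%), 62.5% in agb1 gpa1 leaves (50.1%), 55.9% for the agb1 gpa1 leaf level (40%) and 29.9% for its change between tissues (52.2%). Centring moved the median ABA difference of all probe sets by 0.25 in WT, 0.12 in agb1 and 0.10 in agb1 gpa1 leaves, and the agb1 gpa1 change between tissues by -0.12.

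Genotype calls were fewer than 5 under every setting and changed with it. On the arrays of the compared genotypes alone, agb1 guard cells had 0 called genes, agb1 gpa1 guard cells 0, gpa1 guard cells 1, gpa1 leaves 3, agb1 gpa1 leaves 3, and ABA in agb1 gpa1 leaves changed 1 of the 5 pathway genes. Median centring and the removal of dim probe sets each gave 1 in gpa1 guard cells, and 2 and 4 for the gpa1 change between tissues. With 1 array left out, calls ranged from 0 to 2 in gpa1 guard cells, 1 to 3 in agb1 gpa1 guard cells, 0 to 1 in agb1 gpa1 leaves, 0 to 3 for the gpa1 change between tissues and 0 to 1 for the agb1 gpa1 change. In gpa1 guard cells the 2 came without the third gpa1 array with ABA, and in agb1 gpa1 guard cells the 3 without the first agb1 gpa1 array with EtOH. The agb1 gpa1 change had 1 call without the third agb1 gpa1 guard cell array with ABA or the third WT leaf array with either treatment. In agb1 gpa1 leaves the call was lost without the first or second array of WT with ABA or of agb1 gpa1 with EtOH, the first of WT with EtOH, or any of agb1 gpa1 with ABA. The causes were not tested. The files give no detection calls, so signal over background is unknown, and 4 of the 115 genes fell under the filter on dim probe sets.

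Over all probe sets, calls ranged over these settings from 11 to 47 in agb1, 5 to 234 in gpa1 and 46 to 260 in agb1 gpa1 guard cells, and from 0 to 2 in agb1, 1 to 33 in gpa1 and 13 to 214 in agb1 gpa1 leaves, against 25, 47, 133, 1, 1 and 40 as reported. For the changes between tissues they ranged from 0 to 7 in agb1, 133 to 634 in gpa1 and 107 to 610 in agb1 gpa1, against 3, 373 and 400. ABA calls were 3017 in WT guard cells, 1557 in agb1 leaves, 1358 in agb1 gpa1 leaves and 3967 in gpa1 leaves on the compared arrays alone, against 4585, 3303, 2311 and 2347, and as few as 1439 in gpa1 leaves with 1 array left out.

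The labels do not say that replicate numbers mark a pairing, and not every same-numbered pair correlated above 0.1. Same-numbered guard cell arrays had a mean correlation of deviations of 0.126 (lowest -0.287) and differently numbered ones -0.062. In guard cells 18 of 24 arrays correlated best with their own number, a hint of pairing from the data and not the design, and in leaves 7 of 24 did. With the replicate number as a block, 1 gene was called in gpa1 guard cells, 2 for the gpa1 change between tissues and 1 for the agb1 gpa1 change, and no other count of the 115 genes moved by over 1.5 times.

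Some differences without a call changed sign over the alternatives. AT5G52050 ranged from -0.39 to 0.10 in WT, -0.38 to 0.35 in agb1, -0.23 to 0.29 in gpa1 and -0.37 to 0.83 in agb1 gpa1 guard cells. BGLU33 ranged from -0.070 to 0.16 in WT, -0.092 to 0.034 in gpa1 and -0.22 to 0.095 in agb1 gpa1 guard cells, and from -0.40 to 0.073 in gpa1 leaves. COR47 ranged from -0.047 to 0.60 in WT leaves.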
